A study of Homo sapiens with 8 samples.

Results

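EGR1, EGR2, EGR3, NR4A1, NR4A2, NR4A3, IER2, IER3 and IER5 are 9 early response genes, and they were chosen by symbol from the 25593 gene rows of a transcriptome table of leukaemia cells. Each of the 9 symbols had a single row, with a value in all 8 RNA sequencing libraries. The libraries came from HL60 cells given 100 nM cinobufagin for 24 h, HL60 cells left without drug, Kasumi-1 cells given 100 nM cinobufagin for 24 h and Kasumi-1 cells left without drug, with 2 libraries per group. HL60 cells derive from a promyelocytic leukaemia and carry extra copies of MYC, Kasumi-1 cells derive from a myeloblastic leukaemia with the RUNX1-RUNX1T1 fusion, and cinobufagin is a steroid of toad venom that inhibits the Na+/K+-ATPase. HL60 was grown with 10% and Kasumi-1 with 20% fetal bovine serum, so that line and serum cannot be told apart. The labels name no vehicle for the cells without drug, each kind of leukaemia is represented by 1 line, and whether a group's libraries derive from different cultures is not said. Any p-value therefore sets a change against library-to-library spread that may be only technical.

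Early response genes are transcribed within minutes of a signal, without new protein synthesis, mostly through SRF with its ELK partners, CREB and NF-kB factors that already sit in the cell. Their mRNAs are short-lived, so that levels normally fall back soon after a brief stimulus. EGR1, EGR2 and EGR3 are zinc finger transcription factors that bind GC-rich sites and are held in check by the corepressors NAB1 and NAB2. NR4A1, NR4A2 and NR4A3, also called NUR77, NURR1 and NOR1, are orphan nuclear receptors that act without a known hormone, and in mice the joint loss of NR4A1 and NR4A3 leads to acute myeloid leukaemia. IER2 and IER5 are related proteins that bind the phosphatase PP2A, and IER5 activates the heat shock factor HSF1. IER3, also called IEX-1, is a separate small protein that is induced by NF-kB and acts on cell survival. In myeloid cells EGR1 and EGR2 are known for their part in monocyte and macrophage differentiation.

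The bases before the transcription start are shown for EGR1, EGR2, NR4A3 and IER5, because they hold the letter patterns by which signal-dependent factors are known to reach such genes. The sequences are RefSeq's, build GRCh38.p14, and each runs 5′ to 3′ in the direction of the gene. EGR1 (chr5:138465319-138465478, plus strand), the third listed start of EGR2 (chr10:62816367-62816526, minus strand) and NR4A3 (chr9:99821725-99821884, plus strand) are given from base -160 to base -1, with CArG boxes, the SRF pattern, and CRE half-sites, TGACG on either strand, in capitals. IER5 (chr1:181088450-181088569, plus strand) is given from base -250 to base -131, with the heat shock element GAANNTTC in capitals.
EGR1: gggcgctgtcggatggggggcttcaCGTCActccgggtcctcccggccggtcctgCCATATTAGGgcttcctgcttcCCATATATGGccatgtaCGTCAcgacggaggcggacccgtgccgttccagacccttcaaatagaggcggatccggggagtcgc
EGR2: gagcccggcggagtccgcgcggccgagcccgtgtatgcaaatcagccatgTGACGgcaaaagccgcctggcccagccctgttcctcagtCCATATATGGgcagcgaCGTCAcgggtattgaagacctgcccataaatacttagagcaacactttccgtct
NR4A3: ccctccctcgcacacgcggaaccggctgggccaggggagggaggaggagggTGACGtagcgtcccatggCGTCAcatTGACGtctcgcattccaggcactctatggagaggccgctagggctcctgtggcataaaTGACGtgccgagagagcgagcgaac
IER5: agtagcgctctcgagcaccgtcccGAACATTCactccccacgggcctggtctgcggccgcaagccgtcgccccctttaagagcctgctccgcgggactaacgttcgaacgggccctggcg
The table held 9 windows, from 250 bases before to 50 bases after a start, for 6 of the 9 genes. EGR3, NR4A2 and IER3 had no window and were not searched. EGR1 held 2 CArG boxes, at bases -105 to -96 and -83 to -74, and EGR2 held 1, at bases -71 to -62, whereas 1.29% of the 35116 windows of this length in the table held any. CRE half-sites numbered 2 in EGR1, 2 in EGR2, 4 in NR4A3 and 1 in IER2, and 24.6% of all windows held at least 1. A heat shock element lay in IER5 at bases -226 to -219, and 6.77% of all windows held one. An EGR site, GCGNGGGCG, lay in the window of EGR1 and in that of the second start of EGR2, against 9.43% of windows, and an E-box, CACGTG, lay in the window of that second start, against 7.26%. The full CRE TGACGTCA (1.85% of windows), of which TGACG is part, the AP-1 site TGANTCA (7.71%), the NR4A site AAAGGTCA (1.22%), the kappa-B site (5.91%) and the TATA box TATAAA (11.5%) matched none of the 9 windows. Both windows of NR4A1 and that of the first start of EGR2 held none of the 10 patterns searched. A match is a match of letters and no evidence that a factor bound there in these cells.

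Values are FPKM, fragments per kilobase of transcript scaled to the library's mapped fragments, as the authors deposited them. Genes with an FPKM of at least 1 numbered 10623 to 11371 per library. The sources used here give no read totals, and relative depth, judged from low values, was 0.787 to 1.06. CD34 was listed at 0 in the HL60 libraries and averaged 59.8 FPKM in untreated Kasumi-1, as their labels imply, and MYC fell to 29.8 ± 0.75 FPKM in treated HL60, against 768 ± 26 in untreated HL60 (SD, n = 2 each). Of the marker genes of other lineages, 3 of 16 erythroid and megakaryocyte genes, 3 of 14 T and NK cell genes, 2 of 8 B cell genes and 1 of 12 fibroblast and epithelial genes passed the filter on low values. The summed level of the T and NK list was 109 to 116 FPKM in treated and 105 to 109 FPKM in untreated HL60, with NKG7 at 97.7 and 88.4 FPKM in treated and 25.2 and 26.3 FPKM in untreated HL60, and CD4, which monocytic cells also carry, at 16.8 and 19.1 FPKM in treated and 79 and 82.4 FPKM in untreated HL60. That of the B cell list was 0.58 to 0.949 FPKM in treated and 4.11 to 4.12 FPKM in untreated HL60. In Kasumi-1 the B cell sum was 6.78 to 10.9 FPKM with the drug and 15.1 to 15.5 FPKM without it. The T and NK sum there was 43.8 to 46.3 FPKM with the drug and 35.8 to 36.2 FPKM without it. The fibroblast and epithelial sum there was 72.8 to 75.7 FPKM with the drug and 77.4 to 78.6 FPKM without it, almost all from EPCAM. In HL60 that last sum was at most 0.523 FPKM. Their part in the results was not tested. In bulk RNA, fewer cells of a type and less RNA per cell cannot be told apart. FPKM is scaled within a library, so a change in total RNA per cell would not be seen. The replicate numbers also stood apart in short RNAs, with SNORD50A listed at 0 in all replicate 1 libraries and at 45596 to 748781 FPKM in replicate 2 libraries, and changes within each replicate number are therefore given for the genes below.

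In HL60, EGR, NR4A and IER transcripts were all higher with cinobufagin, from 2.38-fold for IER2 to more than 100-fold for IER3, EGR3 and EGR2. In Kasumi-1, none of the 9 passed the test, and EGR2 and EGR3 were listed at 0 in both treated libraries. Changes were tested with limma on log2(FPKM + 1), and a gene is called changed at a Benjamini-Hochberg adjusted p under 0.05 over all 12511 tested genes. In HL60, 36% of these genes were called higher with the drug, 37.6% lower, and 11.9% were called higher with a log2 change of at least 1. All 9 genes were in the last group. That count is no support by itself. The filter was an FPKM of at least 1 in 2 libraries. Of the 9 genes, 5 (EGR1, EGR2, EGR3, NR4A2 and NR4A3) passed it only through the treated HL60 libraries. The choice of tested genes thus favoured a rise in these 5.

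**Figure D1:**
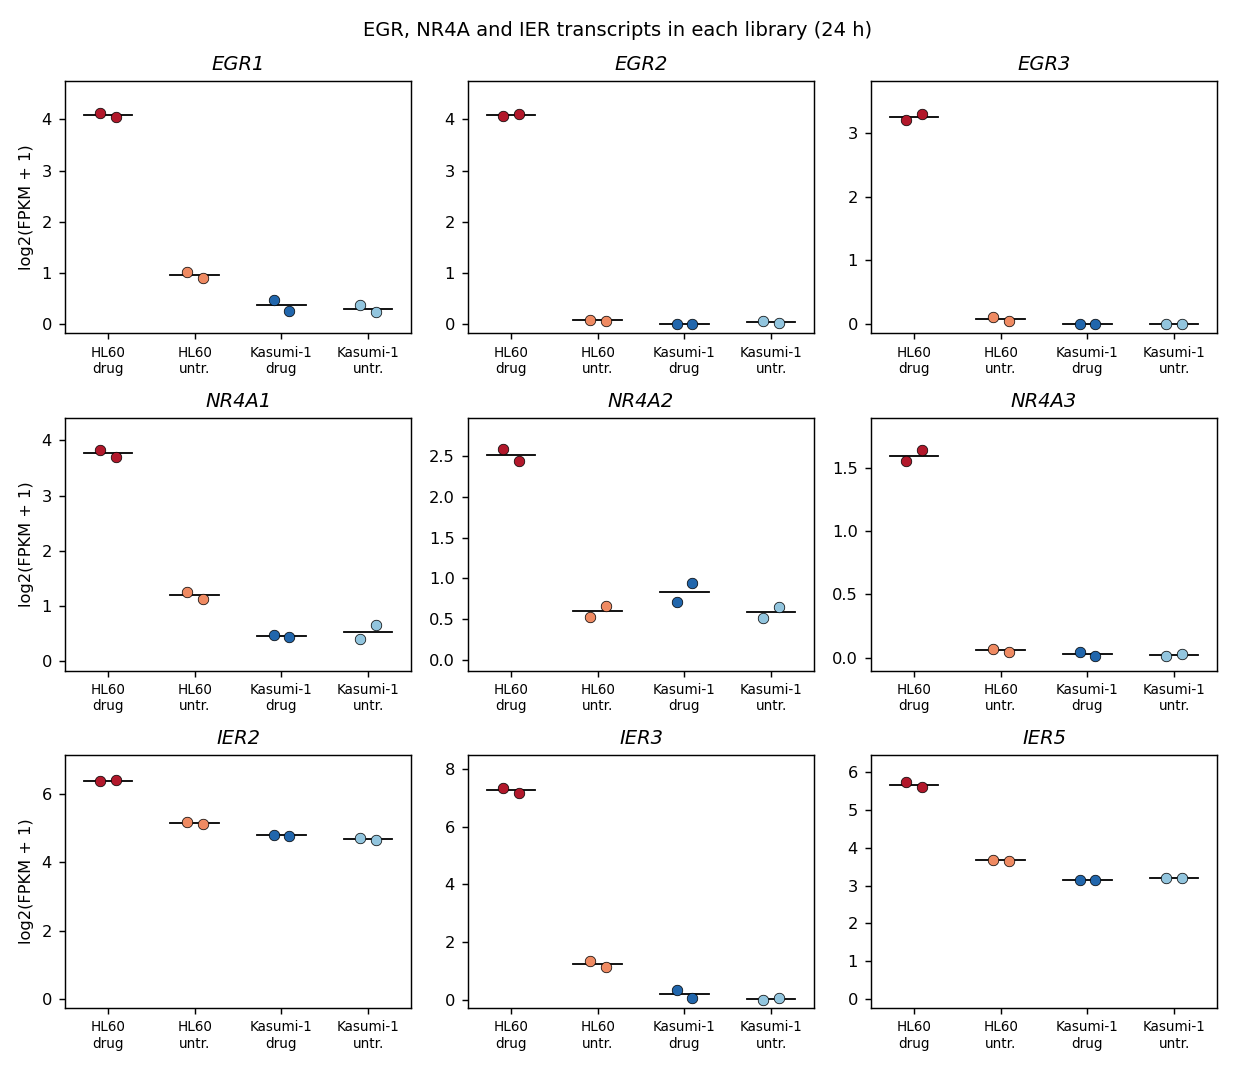
Expression of the 9 genes as log2(FPKM + 1), 1 panel per gene with its own scale, for HL60 with drug, HL60 untreated, Kasumi-1 with drug and Kasumi-1 untreated. Points are the 2 libraries of a group and lines their mean. Both treated HL60 libraries lie above the other 6 in every panel, and the treated and untreated Kasumi-1 points lie close together.

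EGR1, the member of its family with the most transcript in untreated cells, had 16.4 and 15.6 FPKM in treated HL60, against 1.04 and 0.87 FPKM in untreated HL60. Kasumi-1 cells had 0.387 and 0.2 FPKM with the drug and 0.296 and 0.179 FPKM without it. The HL60 groups lay far apart, and the Kasumi-1 groups overlapped. In HL60 EGR1 rose by 3.12 on the log2(FPKM + 1) scale (SE 0.10, limma adjusted p = 9.22e-07), or 16.8-fold in mean FPKM. EGR2, which drives monocytic genes and, in nerve, myelination, had 15.6 and 16.3 FPKM in treated HL60, against 0.0646 and 0.0419 FPKM in untreated HL60. In Kasumi-1 EGR2 was listed at 0 in both treated libraries and at 0.0437 and 0.0203 FPKM in the untreated ones. With drug, HL60 thus carried EGR2 transcript at the level of EGR1, from a base near the lowest values in the table. EGR2 rose by 4.01 (SE 0.06, limma adjusted p = 1.28e-07) in HL60. The SE pools the spread of all groups, and outside treated HL60 EGR2 lay near 0, where log2(FPKM + 1) can hardly vary. The SE and p of EGR2, and likewise of EGR3 and NR4A3, may therefore understate the spread in treated HL60. The ratio of mean FPKM, 299.9, rests on a denominator of 0.0533 FPKM and is imprecise, since so low a value stands for few fragments.

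EGR3, best known from T cells and muscle spindles, had 8.28 and 8.95 FPKM in treated HL60, against 0.0754 and 0.0263 FPKM in untreated HL60. It was listed at 0 in all 4 Kasumi-1 libraries, so no change can be given there. In HL60 it rose by 3.19 (SE 0.07, limma adjusted p = 2.5e-07). The fourth gene of the family, EGR4, stayed below the filter and was not tested. It was listed at 0.43 and 0.395 FPKM in treated HL60, at 0 in both untreated HL60 libraries and both treated Kasumi-1 libraries, and at 0 and 0.0243 FPKM in untreated Kasumi-1.

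Because FPKM is scaled to length, levels can be set side by side between genes. EGR1 made up 40.7% and 38.2% of the summed FPKM of EGR1, EGR2 and EGR3 in treated HL60, against 88.1% and 92.7% in untreated HL60. EGR2 made up 38.8% and 39.9% with the drug and 5.48% and 4.46% without it, and EGR3 20.5% and 21.9% with the drug and 6.39% and 2.8% without it. The sum itself was 40.3 and 40.8 FPKM in treated HL60 libraries and 1.18 and 0.939 FPKM in untreated ones. In Kasumi-1 EGR1 was the only one of the 3 listed above 0 with the drug and held 87.1% and 89.8% of the sum without it, and the sum did not exceed 0.387 FPKM in any Kasumi-1 library.

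**Figure D2:**
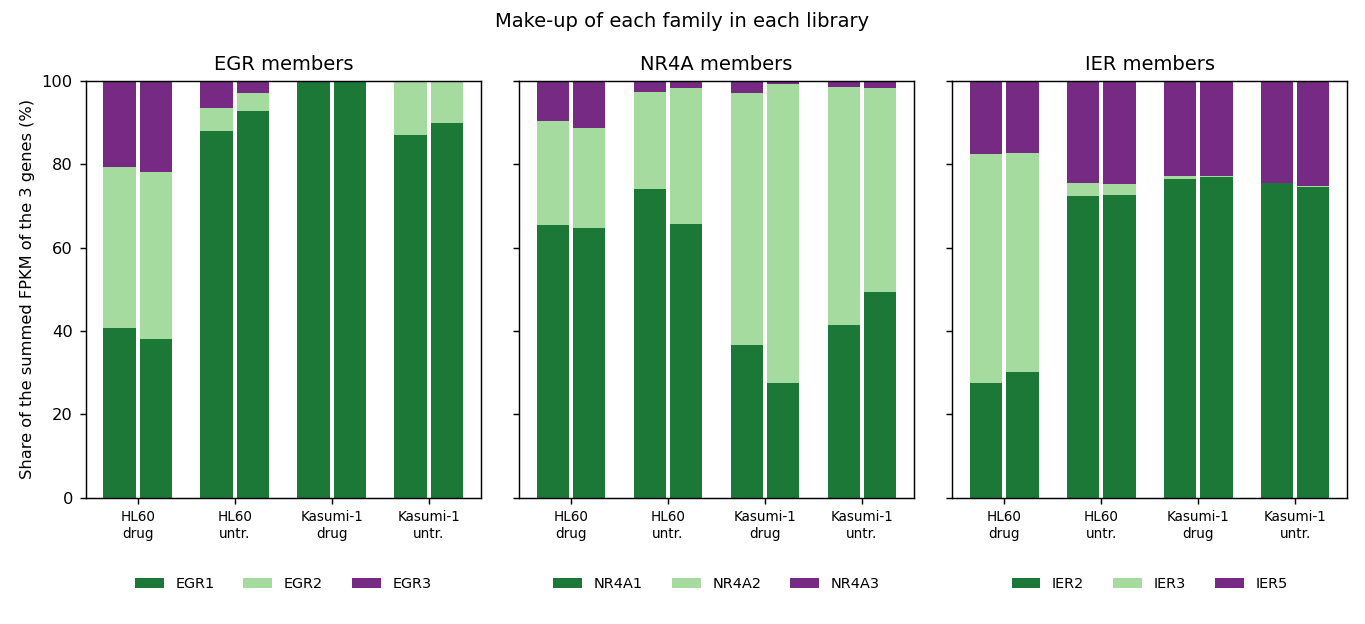
Share of each gene in the summed FPKM of its family, in percent, for each of the 2 libraries of the 4 groups. EGR2 and EGR3 take larger shares of the EGR sum in treated than in untreated HL60, and IER3 takes 54.7% and 52.6% of the IER sum there, against 3.13% and 2.58% in untreated HL60.

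NR4A1, the most abundant NR4A transcript in HL60 and a receptor linked to cell death and to monocyte maturation, had 13.2 and 12.1 FPKM in treated HL60, against 1.39 and 1.18 FPKM in untreated HL60. In Kasumi-1 NR4A1 had 0.386 and 0.357 FPKM with the drug and 0.315 and 0.573 FPKM without it. The HL60 groups were clearly separated, and the treated Kasumi-1 values lay between the untreated ones. NR4A1 rose by 2.58 in HL60 (SE 0.11, limma adjusted p = 2.38e-06), or 9.82-fold in mean FPKM. NR4A2, known for its part in dopamine neurons, had 5.03 and 4.45 FPKM in treated HL60, against 0.436 and 0.587 FPKM in untreated HL60. Kasumi-1 libraries showed 0.639 and 0.928 FPKM with the drug and 0.434 and 0.569 FPKM without it. Here the Kasumi-1 groups did not overlap either, yet their gap was small beside the spread within them. NR4A2 rose by 1.92 in HL60 (SE 0.11, limma adjusted p = 9.14e-06), and its Kasumi-1 difference of 0.24 (SE 0.11) was not called (limma adjusted p = 0.152).

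NR4A3, which acts with NR4A1 as a tumour suppressor in mouse myeloid cells, was the lowest of the 9 genes in treated HL60. It had 1.94 and 2.12 FPKM in treated HL60, against 0.0514 and 0.03 FPKM in untreated HL60. In Kasumi-1 NR4A3 had 0.0298 and 0.00979 FPKM with the drug and 0.0106 and 0.0194 FPKM without it, and these overlapped. NR4A3 rose by 1.54 in HL60 (SE 0.06, limma adjusted p = 2.03e-06), or 49.9-fold in mean FPKM from a very low base. Adding 1 before the logarithm shrinks changes at such levels, and with a pseudocount of 0.1 the HL60 change became 3.92 for NR4A3, 6.72 for EGR2 and 5.87 for EGR3. NR4A1 came first of the NR4A genes in both HL60 states. NR4A1 held 65.5% and 64.8% of the NR4A sum with the drug and 74.1% and 65.7% without it. In Kasumi-1 NR4A2 held 60.6% and 71.7% of the sum with the drug and 57.1% and 49% without it.

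IER3 had the largest change of the 9 genes on the log2(FPKM + 1) scale, while EGR2 and EGR3 had larger ratios of mean FPKM and, with a pseudocount of 0.1, EGR2 equalled it at 6.72. IER3 had 161 and 144 FPKM in treated HL60, against 1.51 and 1.21 FPKM in untreated HL60. Kasumi-1 cells had 0.274 and 0.0515 FPKM with the drug and 0 and 0.0509 FPKM without it. Treated HL60 lay far above every other group, and the lower treated Kasumi-1 library all but equalled the higher untreated one. IER3 rose by 6.03 in HL60 (SE 0.12, limma adjusted p = 2.37e-07), or 112-fold in mean FPKM, and 0.144% of tested genes had a larger log2 change. IER2, a nuclear protein with PP2A binding, had 81.5 and 82.7 FPKM in treated HL60, against 35 and 34 FPKM in untreated HL60. In Kasumi-1 IER2 had 26.7 and 26.3 FPKM with the drug and 25 and 24.2 FPKM without it. IER2 was well expressed in all 8 libraries, and within each line its treated values lay above its untreated ones. It rose by 1.23 in HL60 (SE 0.04, limma adjusted p = 1.32e-06), or 2.38-fold in mean FPKM. Its Kasumi-1 difference of 0.10 (SE 0.04) was not called (limma adjusted p = 0.129), but quantile normalization raised it to 0.15 and past the threshold (limma adjusted p = 0.0478).

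IER5 had 51.9 and 47.2 FPKM in treated HL60, against 11.9 and 11.5 FPKM in untreated HL60. Kasumi-1 libraries showed 7.93 and 7.82 FPKM with the drug and 8.11 and 8.2 FPKM without it. The HL60 groups were widely separated, and the Kasumi-1 groups, which did not overlap, differed by a few percent. IER5 rose by 1.99 in HL60 (SE 0.06, limma adjusted p = 8.06e-07), or 4.24-fold in mean FPKM. IER5L, its relative, was not among the 9 genes and showed another pattern between lines. It had 5.24 and 4.68 FPKM in treated HL60, against 0.913 and 0.867 FPKM in untreated HL60, while Kasumi-1 cells had 5.83 and 5.4 FPKM with the drug and 7.2 and 5.63 FPKM without it. IER5L rose by 1.65 in HL60 (SE 0.11, limma adjusted p = 2.01e-05), which brought it near the level that Kasumi-1 had in both states.

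The HL60 changes were alike in the 2 replicate numbers. Within replicate 1 and replicate 2 they were 3.09 and 3.15 for EGR1, 3.97 and 4.05 for EGR2, and 3.11 and 3.28 for EGR3. They were 2.57 and 2.58 for NR4A1, 2.07 and 1.78 for NR4A2, and 1.49 and 1.60 for NR4A3. For IER2 they were 1.20 and 1.26, for IER3 6.01 and 6.04, and for IER5 2.04 and 1.94. The Kasumi-1 changes were 0.098 and 0.025 for EGR1, -0.062 and -0.029 for EGR2, and 0.076 and -0.213 for NR4A1. They were 0.193 and 0.297 for NR4A2, 0.027 and -0.014 for NR4A3, and 0.090 and 0.116 for IER2. For IER3 they were 0.350 and 0.0008, and for IER5 -0.029 and -0.060. The Kasumi-1 changes of NR4A1 and NR4A3 thus differed in sign between the replicate numbers. EGR3, NR4A1, IER2 and IER3 have a gene on the other strand across them in GENCODE 29, among these IER3-AS1. The kit was stranded, but the sources used here give no strand setting for the quantification. Whether reads of these partners were kept apart from theirs is therefore not known.

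**Figure D3:**
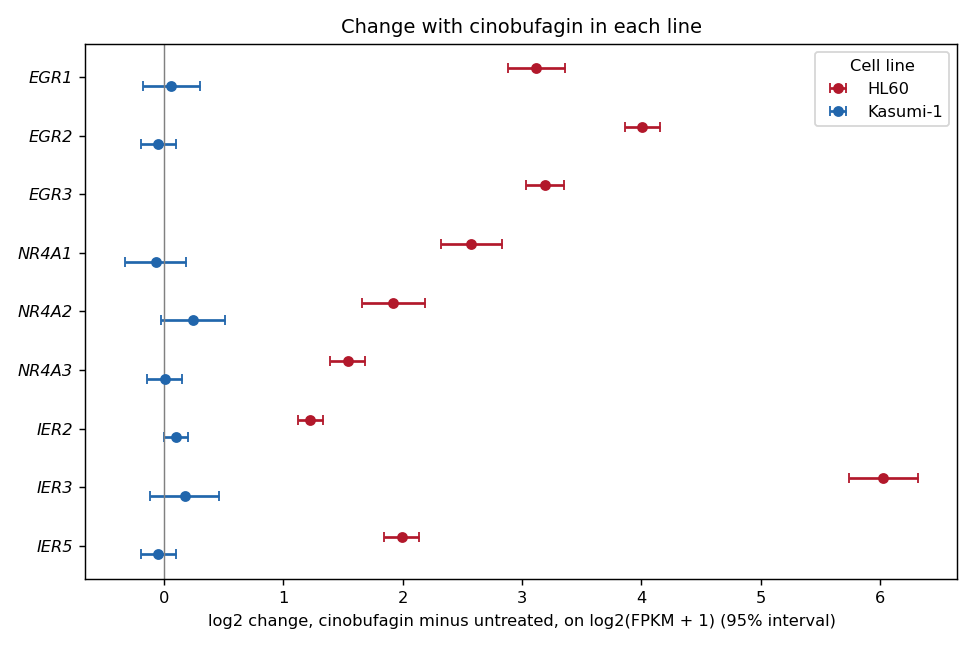
Log2 change with cinobufagin (treated minus untreated, on log2(FPKM + 1)) of each gene in HL60 and in Kasumi-1, with 95% intervals from limma. The HL60 changes run from 1.23 for IER2 to 6.03 for IER3, and every Kasumi-1 interval includes 0. EGR3 has no Kasumi-1 point because it was listed at 0 in all 4 libraries.

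The next question was whether the lines differed in their response, which was tested as the HL60 change minus the Kasumi-1 change. In Kasumi-1 10.1% of tested genes were called higher and 16.2% lower, and 0 of the 9 genes were called in either direction. By unadjusted p under 0.05 the count was also 0, against 39.9% of tested genes. Little can be read from this, because EGR1, EGR2, EGR3, NR4A2 and NR4A3, which were tested only through treated HL60, were under 1 FPKM in every Kasumi-1 library, as were NR4A1 and IER3. In 3 of the 9 the treated libraries lay above both untreated ones and in 2 below, against 25.6% and 35.9% of tested genes. After rescaling by median ratios rises made up 51.7% of the Kasumi-1 calls over all genes, and 48.3% after quantile normalization, instead of 38.5%. The Kasumi-1 values of the 9 genes were not alike in precision. For IER2 the 95% interval ran from -0.0012 to 0.21, for IER5 from -0.19 to 0.10 and for EGR1 from -0.18 to 0.30. It was wider for NR4A2, from -0.02 to 0.51, and for IER3, from -0.11 to 0.47. Small rises of these genes in Kasumi-1 were thus not detectable at this precision. The narrow intervals of genes near 0 owe to the added 1, and with a pseudocount of 0.1 the Kasumi-1 change became 0.96 for IER3 (limma adjusted p = 0.158) and 0.54 for NR4A2 (limma adjusted p = 0.133), neither called.

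All 9 genes had a difference between lines above 1, and 33.1% of tested genes were called higher in this comparison (10.3% with a difference of at least 1). The difference was 5.85 for IER3 (SE 0.17, limma adjusted p = 2.51e-06), 4.06 for EGR2 (SE 0.09, limma adjusted p = 1.53e-06) and 3.06 for EGR1 (SE 0.14, limma adjusted p = 1.14e-05). It was smallest for IER2, at 1.13 (SE 0.06, limma adjusted p = 2.17e-05), and lay between 1.53 and 3.19 for the other 5. These differences share their libraries with the HL60 changes and are no separate evidence for them. For the 5 genes tested only through treated HL60 the filter favoured a difference, and that of EGR3 is its HL60 change alone. MYC, which the series title names, fell in both lines, by 4.64 on the log2 scale in HL60 and by 0.62 in Kasumi-1.

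**Figure D4:**
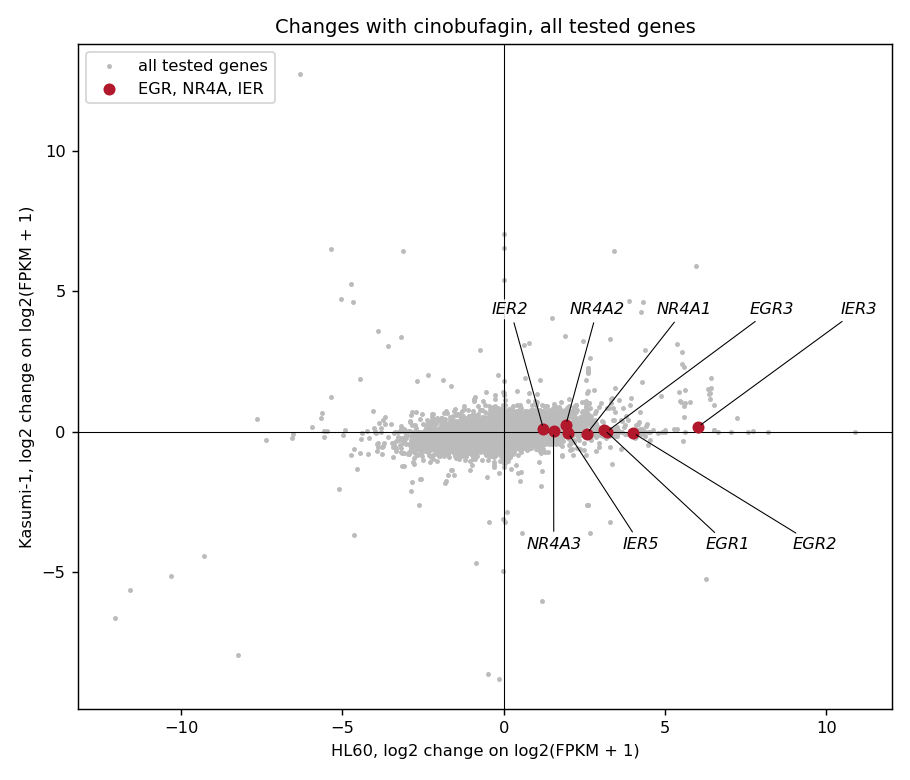
Log2 change with cinobufagin in HL60 (x axis) against that in Kasumi-1 (y axis), both on log2(FPKM + 1), for the 12511 tested genes in grey and the 9 genes in red. The 9 genes spread along the x axis between 1.23 and 6.03 and stay between -0.07 and 0.24 on the y axis. EGR3 is drawn at 0 on the y axis because it was listed at 0 in every Kasumi-1 library, so that point is no measured change.

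Without drug, 5 of the 9 genes were higher in HL60 than in Kasumi-1, and 33.8% of all tested genes were. They were IER3 with a log2 difference of 1.20 (SE 0.12, limma adjusted p = 0.000133), NR4A1 with 0.67 (SE 0.11, limma adjusted p = 0.0013), EGR1 with 0.66 (SE 0.10, limma adjusted p = 0.000999), IER5 with 0.47 and IER2 with 0.47 (both SE 0.04 to 0.06). A share of 5 in 9 lies not far above that background. EGR2, EGR3, NR4A2 and NR4A3 did not pass, with differences between 0.01 and 0.07. For EGR1, NR4A1, IER2, IER3 and IER5 the order of levels was therefore treated HL60, untreated HL60 and then both Kasumi-1 groups, between which no difference was called. For IER2, IER3 and IER5 the 2 Kasumi-1 groups did not overlap, with IER2 and IER3 higher and IER5 lower in the treated libraries. For IER3 the gap was minute, with 0.0515 FPKM in the lower treated library and 0.0509 FPKM in the higher untreated one. For EGR2, EGR3, NR4A2 and NR4A3 treated HL60 came first, and the other 3 groups were not separated by the tests made. With a pseudocount of 0.1 the untreated difference of EGR3 passed as well (0.57, limma adjusted p = 0.0414), and with quantile normalization that of NR4A2 did (0.35, limma adjusted p = 0.0153).

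The 9 genes varied together. Pairwise Pearson correlations of log2(FPKM + 1) over the 8 libraries lay between 0.943 and 1.000 for the 36 pairs, with a median of 0.987. The 8 points share their 4 groups, so the coefficients mostly describe the gap between treated HL60 and the rest. Among 9126 candidate genes with a group mean of at least 5 FPKM, 80 (for NR4A2) to 181 (for IER2 and IER3) correlated above 0.99. Among the genes most like EGR2 were EGR3 (r = 0.9998) and EMP1, a membrane protein (0.9994). NR4A3 was most like EGR3 (0.9998), EGR2 (0.9995) and EMP1 (0.9992). EGR1 was most like IER3 (0.9994), LRRC25 (0.9992) and the chemokine gene CCL4 (0.9991), whose near-identical copies make its own value uncertain. IER3 was most like HLX, a homeobox factor (0.9998), the kinase gene PIM3 (0.9996) and EGR1. NR4A1 and IER5 shared the water channel AQP9 and the growth factor VEGFA among their 3 nearest genes (0.9978 and 0.9979 for NR4A1, 0.9991 and 0.9989 for IER5). IER2 was nearest to CREBBP, a coactivator of CREB (0.9995), PGLYRP1 (0.9995) and NFKB1 (0.9991), and NR4A2 to CLDND1, TTK (0.9976 each) and MLL4 (0.9969).

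In structure the 9 genes were mostly compact. GENCODE 29 gives IER2 and IER5 a single exon, EGR1, EGR2, EGR3 and IER3 2 exons, NR4A1 and NR4A2 8 and NR4A3 9. Of the 9, 6 had 1 or 2 exons, against 6.33% of the 10292 tested genes that could be matched by symbol, and 8 spanned under 10000 bases, against 23.1%. IER3 was the shortest, with a transcript of 1244 bases on 1356 bases of genome. NR4A3 was the longest, at 45037 bases. The pentamer ATTTA, the core of AU-rich elements that mark mRNAs for fast decay, occurred 10 times in the 3′ end of the IER5 and NR4A3 transcripts after the stop codon, 6 times in IER3, 4 in NR4A2, 3 in EGR3 and NR4A1, 2 in EGR2 and once in EGR1. IER2 had 0. At least 4 copies were held by 4 of the 9 genes and by 33.9% of tested genes, a share near the background. The longer pattern TTATTTATT occurred in IER5 alone, 3 times, against 8.15% of tested genes with at least 1.

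The genes around the 9 were taken from lists of their upstream factors, partners, inhibitors and targets. Some genes stand in more than 1 list, among them DUSP2, KLF4 and NAB2, so the counts of different lists are not separate. Their counts are set beside all tested genes, of which 36% were called higher and 37.6% lower in HL60, and 10.1% higher and 16.2% lower in Kasumi-1. The lists were chosen with earlier results of these data known, so this comparison describes them and is no test. In 4 of the lists some members passed the filter only through treated HL60, which favoured a rise in them. These were 3 of 11 EGR1 targets and 4 of 32 other early genes. The others were 3 of 12 monocyte and macrophage genes and 1 of 12 MAPK inhibitors. Among the genes named below, those that passed only through treated HL60 are CDKN1A, FOSB, KLF4, CD163 and SPRY4. NAB2, the EGR corepressor that EGR proteins themselves induce, had 60.8 and 58.7 FPKM in treated HL60, against 7.55 and 7.19 FPKM in untreated HL60, and it rose by 2.86 (SE 0.07, limma adjusted p = 3.45e-07). In Kasumi-1 NAB2 had 6.05 and 6.84 FPKM with the drug and 7.4 and 7.61 FPKM without it, which was not called (limma adjusted p = 0.0809). NAB1 rose by 1.41 in HL60. RXRA and RXRB, with which NR4A1 and NR4A2 pair, rose by 1.45 and 0.60 in HL60, and RXRG was listed at 0 in all libraries.

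Among 14 genes known as EGR1 targets, 11 were tested, and in HL60 10 rose and 0 fell (median 2.32, against -0.01 for all tested genes). They include ICAM1, an adhesion molecule, at 3.45, CDKN1A, the CDK inhibitor p21, at 3.47, and NAB2. In Kasumi-1 0 rose and 1 fell (median -0.14, against -0.04 for all tested genes). With the replicate number as a block 1 rose and 2 fell, and with a pseudocount of 0.1 or quantile normalization 0 fell. In most fits that left out a single library, the Kasumi-1 fall was not called either.

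Of 15 SRF, ELK, CREB, CRTC and MEF2 genes 12 rose and 0 fell in HL60 (median 0.67). Named by adjusted p, they include the CREB coactivator CRTC2 at 1.51, ATF1 at 0.87 and the SRF coactivator MKL1 at 0.84. CREB1 and MEF2A changed more than ATF1 and MKL1. Within replicate 1 and replicate 2 of HL60, the change was 1.20 and 1.19 for CREB1 and 1.24 and 1.12 for MEF2A. In Kasumi-1 3 rose, MEF2D by 0.46, CRTC2 by 0.34 and MKL1 by 0.27, and with the replicate block 4 rose and 2 fell. SRF itself, named here after its value was seen, rose by 0.53 in HL60 and stood at -0.01 in Kasumi-1 (limma adjusted p = 0.946). Of 18 RAS, RAF, MEK, ERK, RSK and stress kinase genes 11 rose and 1 fell in HL60 (median 0.47), with MAP2K1 at 1.48, MAP2K2 at 1.07, BRAF at 1.16 and RPS6KA4 at -1.24. In Kasumi-1 4 rose and 1 fell, among them RPS6KA1 at 0.22, MAP2K2 at 0.23, RPS6KA2 at 0.33 and RPS6KA4 at -0.25. The number of rises was 0 without untreated replicate 1 or treated replicate 2 of Kasumi-1, 1 without either of its other libraries, 2 without either treated HL60 library and 3 without either untreated one. With the replicate block 4 rose and 2 fell.

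Feedback inhibitors of MAPK signaling, which ERK activity normally induces together with EGR1, were set beside it. Of 12 tested DUSP, SPRY and SPRED genes 9 rose and 2 fell in HL60 (median 1.32), and 0 rose and 5 fell in Kasumi-1 (median -0.20). DUSP4, a nuclear ERK phosphatase, had 6.38 and 6.24 FPKM in treated HL60, against 0.299 and 0.21 FPKM in untreated HL60. Kasumi-1 cells had 1.09 and 0.998 FPKM with the drug and 2.54 and 2.71 FPKM without it. DUSP4 rose by 2.54 in HL60 and fell by 0.83 in Kasumi-1, and the difference between these changes was 3.37 (SE 0.10, limma adjusted p = 2.51e-06). DUSP1 and SPRY4 rose by 2.93 and 2.01 in HL60, whereas SPRY1 and DUSP7 fell by 0.78 and 0.77. DUSP6, a cytoplasmic ERK phosphatase, fell by 0.72 in Kasumi-1 and SPRED2 by 0.67.

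**Figure D5:**
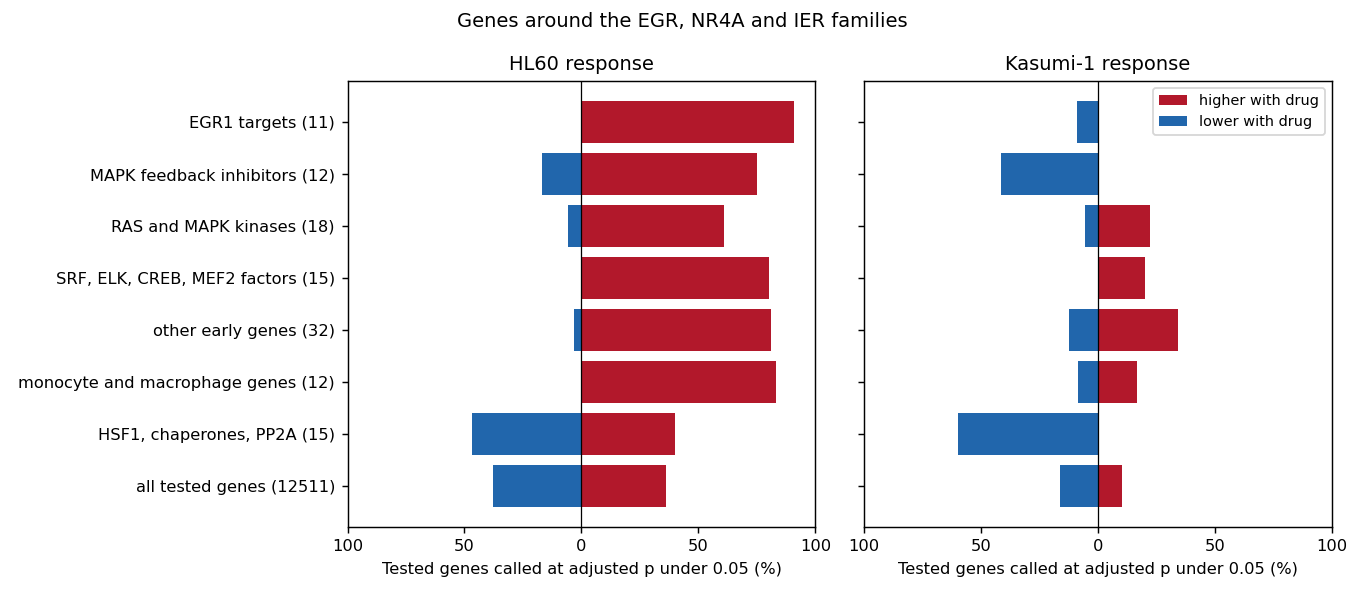
Percent of tested genes called higher (right, red) or lower (left, blue) with cinobufagin at adjusted p under 0.05 in HL60 and Kasumi-1, for the lists around the 9 genes, with the number tested in brackets, and for all tested genes. The HSF1 list runs to the left in Kasumi-1, with 9 of 15 genes lower and 0 higher.

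Other early response genes, from families such as AP-1 and KLF, were set beside the 9 because they answer to the same signals. In HL60 26 of 32 rose and 1 fell (median 2.46). Named by adjusted p, they include PPP1R15A at 3.92, BTG2 at 4.30 and FOSB at 4.47, with SIK1 falling by 0.54. Some other genes of the list rose more than PPP1R15A. In Kasumi-1 11 of 32 rose and 4 fell (median 0.16). PPP1R15A, which restores translation after stress, had 16 and 15.2 FPKM in Kasumi-1 with the drug and 7.96 and 7.37 FPKM without it, a rise of 0.94 (SE 0.08, limma adjusted p = 0.000809). KLF10 rose by 1.05 and JUN by 0.69 in Kasumi-1, while DUSP2, ARC and SIK1 fell by 0.42, 0.44 and 0.40. Without untreated Kasumi-1 replicate 2, 7 genes of the list rose in Kasumi-1, and 9 to 11 did without any other single library.

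The list of HSF1, which IER5 activates, its chaperone targets and PP2A subunits held genes called in both directions. Of 15 genes 6 rose and 7 fell in HL60 (median -0.15), close to the shares over all tested genes, and 0 rose and 9 fell in Kasumi-1 (median -0.36). In HL60 PPP2CA, the catalytic subunit of PP2A, rose by 0.95, CHORDC1 by 0.55 and HSF1 by 0.43, whereas the chaperone genes HSPD1, HSPA8 and HSPB1 fell by 1.75, 1.37 and 1.15. In Kasumi-1 HSP90AA1, HSPA8 and HSPD1 fell by 0.88, 0.72 and 0.72, and with the replicate block 1 gene of the list rose and 11 fell. Of 12 tested monocyte and macrophage genes, the programme in which EGR1 and EGR2 are known to act, 10 rose and 0 fell in HL60 (median 1.11), among them the receptor CD14 at 3.42 and the factor KLF4 at 2.33. With a pseudocount of 0.1 or quantile normalization 10 rose and 1 fell. CSF1R, a receptor on this list, had 0.0154 and 0.0283 FPKM in treated HL60, against 0.192 and 0.201 FPKM in untreated HL60. That was not called in the main fit. The scavenger receptor CD163 rose to 4.13 and 4.28 FPKM in treated HL60, against 0.2 and 0.236 FPKM in untreated HL60, and it was listed at 0 in all Kasumi-1 libraries. In Kasumi-1 the factor SPI1 and the lysosomal protein CD68 rose, by 0.74 and 0.96, and CSF1R, the receptor of macrophage growth factor, fell by 0.46, which was not called without untreated Kasumi-1 replicate 1.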

How the data were processed

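RNA from 8 libraries of HL60 and Kasumi-1 cells was measured with a stranded poly(A) kit, per the labels' protocols. The authors deposited FPKM values, 1 column per library, and 0 columns were left unused. Build hg19 and the tools Cufflinks 2.2.1, HISAT2 2.1.0 and bcl2fastq 2.20.0 come from the submitters' processing notes. Annotation, strand setting and filters were not given in the sources used here. FPKM has no counts behind it here, so no counting interval was set.

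From these values log2(FPKM + 1) was fitted with limma 3.58.1 in R 4.3.3, with 1 mean per group over all 8 libraries (4 residual degrees of freedom) and a prior variance that follows the mean level. The tested genes were the 12511 that reached an FPKM of 1 in 2 or more libraries, and p-values were adjusted over them by Benjamini-Hochberg. The script was tested on simulated data. With 2 libraries a side the smallest two-sided permutation p is 0.33, so none was used. Same-numbered libraries deviated together, with r of 0.125 to 0.331 over the 6 pairs of groups (0.435 to 0.579 without short RNAs). The replicate number was therefore taken to pair them. SEs, intervals and calls nevertheless come from the fit without the replicate number, except where the block is named. A fit with it as a block changed no call of the 9 genes and moved no count over all genes by more than 1.5 times. Relative depth is the most frequent ratio of low values (genes near the floor in all libraries) to those of untreated HL60 replicate 1, inverted.

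The 9 genes, the lists and the motifs were chosen with earlier results of these data known. Named list genes are up to 3 per direction and line with the smallest adjusted p. A few genes that these rules name are not reported here. The nearest genes are the 3 with the highest Pearson r over 8 libraries, leaving out short and unnamed RNAs and repeated symbols. Alternatives were a pseudocount of 0.1, no filter, a filter at FPKM of 5, rescaling by median ratios, quantile normalization, the block, no trend, each line alone and leaving out each library. Promoter windows are RefSeq's on GRCh38.p14 and gene structures GENCODE 29's (1 principal transcript per gene, with 82.4% of tested genes matched). Neither was joined to hg19 coordinates.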

Additional observations from a re-analysis of the deposited data

Results flagged for a closer look

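All 9 genes were called in the test of the difference between the lines' responses (HL60 change minus Kasumi-1 change, log2 scale, limma, adjusted over all tested genes, of which 33.1% were called higher). The differences were 3.06 for EGR1, 4.06 for EGR2 and 3.19 for EGR3. They were 2.65 for NR4A1, 1.68 for NR4A2 and 1.53 for NR4A3, and 1.13 for IER2, 5.85 for IER3 and 2.04 for IER5. With 2 libraries per group, single libraries could not be tested for standing apart from their group. EGR1, EGR2, EGR3, NR4A2 and NR4A3 were tested only through the treated HL60 libraries, so the filter favoured a difference in them. EGR3 was listed at 0 in all 4 Kasumi-1 libraries, so its value is the HL60 change alone.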

How the results depend on the processing

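In HL60 and in the difference between lines, each of the 9 genes kept its direction and its call wherever it was tested. The number called was 5 to 9 when single libraries were left out, because 4 genes fail the filter without a treated HL60 library. With the tested genes fixed on all 8 libraries, an alternative chosen after seeing the data, all 9 were called without either treated HL60 library. A group left with 1 library is assumed to vary like the others. In Kasumi-1 the count of the 9 called higher went to 1, IER2, under quantile normalization, and the cause was not tested. Over all genes, Kasumi-1 fitted alone gave 683 rises and 1152 falls, instead of 1266 and 2026, and leaving out single libraries gave 634 to 1029 rises and 987 to 1727 falls. Each omission of a Kasumi-1 library, from either group, lowered both counts by more than 1.5 times. The replicate block gave 1867 rises and 2882 falls in Kasumi-1, and 9 of the 9 genes called higher in HL60 and 0 in Kasumi-1. It changed no call of the 9 genes in any comparison. The median log2 change of all tested genes moved by under 0.1 under each rescaling. Values under about 0.1 FPKM rest on few fragments, so fold changes of EGR2, EGR3 and NR4A3 are imprecise.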
